A study of Mus musculus with 6 samples.

Results

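Heterotrimeric G proteins, their regulators, the cAMP pathway downstream of them and a set of G protein-coupled receptors were followed in E0771 mouse breast carcinoma cells with and without knockdown of lamin A/C. The genes were chosen by pathway membership, with earlier results of these data known, from a list of 55 symbols, and a listed gene was kept when its symbol was found in the table of molecule counts. Of the 55 listed genes, 44 were among the 10520 genes of that table. The other 11, Gnai1, Gna12, Rgs2, Rgs4, Rgs17, Pde4d, Plcb1, Plcb4, Lpar1, Ptger4 and Ednra, were not analysed here. Every gene of the table reached at least 6 molecules in its highest library, and the kept members closest to that level were Gng2 and Pde7a, whose highest library held 15 molecules each.

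G protein-coupled receptors span the plasma membrane and, once a ligand binds, make the α subunit of a heterotrimeric G protein exchange GDP for GTP, so that α and the paired β and γ subunits part and act on effectors. Gs α stimulates and Gi α inhibits adenylyl cyclases, which make cAMP, Gq α activates phospholipase C β, and cAMP releases the catalytic subunits of protein kinase A (PKA) from its regulatory subunits. RGS proteins shorten the signal by speeding up GTP hydrolysis on the α subunit, phosphodiesterases break down cAMP, and receptor kinases and arrestins uncouple active receptors. In carcinoma cells these pathways carry chemokine, lysophospholipid, protease and nucleotide signals to migration and growth.

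RNA was taken from cultured E0771 cells, a mammary adenocarcinoma line of C57BL/6 origin. Both groups were transduced with lentivirus and selected with puromycin as populations, 3 libraries with the empty vector (shControl) and 3 with 1 shRNA construct against lamin A/C (shLmna). Each library was made by MARS-seq, which counts the 3′ ends of polyadenylated RNA with unique molecular identifiers (UMIs), so that each molecule is counted once. The labels do not say that the libraries of a group came from separate cultures, so that p-values measure the spread between these libraries, which may be technical. The shControl libraries lay at positions 13 to 15 and the shLmna libraries at positions 16 to 18 of plate 3, so that position and group cannot be told apart.

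The 6 libraries held 1846208 to 3242051 UMIs. Lmna, the targeted gene, had 2066, 2794 and 1764 UMIs in shControl and 1035, 1023 and 713 in shLmna, and it fell by 1.20 on the log2 scale (SE 0.13, adjusted p = 3.55e-05, by the edgeR quasi-likelihood test, Benjamini-Hochberg adjusted). Of the 7 epithelial markers, Krt8 was at 516 UMIs or more in every library, Krt18, Krt7 and Epcam were low at 4 to 46 UMIs, and Krt19, Cdh1 and Esr1 were not found in the count table. Epcam had 34, 46 and 25 UMIs in shControl and 14, 32 and 8 in shLmna. Of the 4 mesenchymal markers, the filament gene Vim was at 10546 UMIs or more, Fn1 was at 0 to 8, Cdh2 was not found, and Acta2 had 7, 13 and 3 UMIs in shControl and 26, 41 and 31 in shLmna. Melanocyte transcripts stood out in shControl replicate 3 and shLmna replicate 2: the 5 melanocyte markers found in the table summed to 1385 and 1607 UMIs there, against at most 15 in the other 4 libraries. Libraries of B16F10 melanoma cells were made on the same plate. In CPM, which is UMIs scaled to a fixed library total, the 4 epithelial markers in the table summed to 262 to 308 in shControl and 293 to 328 in shLmna and the 3 mesenchymal ones to 4754 to 5670.1 and 5708 to 6689. The 2 of 5 leukocyte markers in the table, Lyz2 and Cd68, summed to 15.1 to 16.5 CPM in shControl and 19.1 to 24.0 in shLmna, with Lyz2 at 10, 23 and 13 UMIs against 42, 35 and 29 and Cd68 at 34, 26 and 17 against 23, 15 and 10. The defining genes Ptprc and Cd3e were not found in the table, and the 1 of 3 endothelial markers was at 3.16 CPM or less. The part of these in the results was not tested. Results are given below with all 6 libraries and, where a call changed or the log2 fold change moved by more than 0.2, without these 2, since the part of melanocyte RNA was not tested either.

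Of the 44 members, 42 passed the filter on low counts and were tested, and 40 of these passed the filter's level in every library. The exceptions were Gnai3 and Rgs14, which reached it in 2 and 1 shControl libraries and in all 3 shLmna libraries. Both thus passed the filter through the group with the higher mean count. The 2 members that did not pass the filter, Gng2 and Pde7a, held 15 UMIs or fewer in every library. Gng2 reached the filter's level in 2 shLmna libraries and Pde7a in 1 shControl library. Gng2, a G protein γ subunit, had 6, 5 and 2 UMIs in shControl and 15, 11 and 1 in shLmna. Pde7a, a cAMP phosphodiesterase, had 6, 9 and 15 against 7, 8 and 5, and both were left untested.

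Knockdown cells had more RNA of the Gi α gene Gnai3, by 8.26-fold, and less of Rgs16, a GTPase-activating protein for Gi and Gq α subunits, by 4.67-fold. Smaller differences passed the test for Gnai2, Gng11 and Arrb1, which rose, and for Prkar2a, which fell. These 6 were 14.3% of the 42 members tested, 4 higher and 2 lower, and the other 36 did not pass. Across all 8969 genes tested 13.7% passed, 7.96% higher and 5.78% lower, so that the members' share was near that of all genes. The study's criteria, set on DESeq2 results, were an absolute log2 fold change above 1, adjusted p under 0.05 and mean normalised count above 5. Applied here to the edgeR results, they called Gnai3, Arrb1 and Rgs16, 3 of 42, where 5.71% of all genes were called. In the DESeq2 fit made here, Arrb1 did not pass (adjusted p = 0.125), while Gnai3 (0.00508) and Rgs16 (2.03e-08) did. In bulk RNA of this kind, fewer cells with a transcript and less transcript per cell cannot be told apart.

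Over all 42 members tested, the log2 fold change was above 0 for 30 (71.4%) and below 0 for 12. Of all genes tested, 50.4% were above 0. The members, chosen with earlier results known, had a median log2 fold change of 0.20, against 0.0033 over all genes tested. Of the 36 members that did not pass, the log2 fold change was above 0 for 26 and below 0 for 10. The 3 libraries of one group lay entirely above those of the other for 13 members (31.0%), 10 higher and 3 lower in shLmna, beside 32.5% of all genes tested. An unadjusted p under 0.05 was reached by 14 members (33.3%), beside 28.4% of all genes tested.

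**Figure D1:**
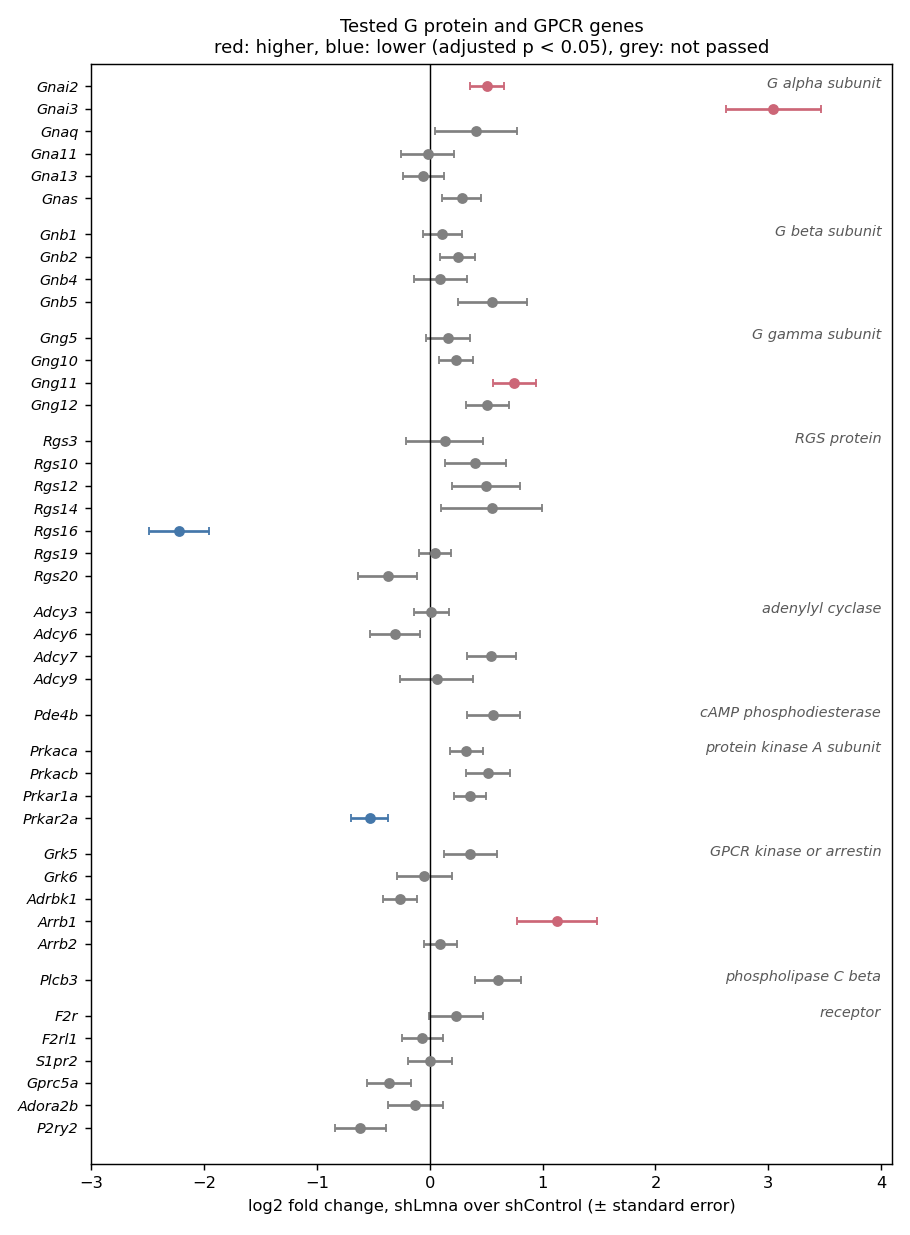
Log2 fold change of each tested member, shLmna over shControl, by role, with its standard error as bars. Red marks members that passed as higher and blue as lower at an adjusted p under 0.05, and grey the others. Gnai3 at 3.05 and Rgs16 at -2.22 lie far outside the other 40 members, which sit between -0.61 and 1.13.

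Among the α subunits, Gnai2 and Gnas, which encodes the Gs α subunit that stimulates adenylyl cyclases, carried most of the molecules in every library. Each gene was counted over the same length of its 3′ end, and these levels are set side by side as UMIs in the counted window. The ends differ in base content, at 55.2% G and C for Gnai2 and 41.8% for Gnas. Its part in the levels was not tested. Gnai2 made up 49.3% to 64.8% of the molecules of the 6 α genes and Gnas 29.9% to 45.2%. Counts below are normalised, that is, scaled to a common library size with TMM factors, and means are given with their SD over the 3 libraries of a group.

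Gnai3, on chromosome 3 at 108107280 to 108146146 on the minus strand of GRCm38, encodes an α subunit that inhibits adenylyl cyclase. It had 9, 14 and 40 UMIs in shControl and 148, 232 and 143 in shLmna. As normalised counts these were 8.77, 10.9 and 52.7 against 138, 211 and 189, with means of 24.1 ± 24.8 (SD, n = 3) and 179 ± 37.7. The groups did not overlap, shControl replicate 3, which held melanocyte transcripts, was the highest of its group, and the lowest shLmna library was still above it. The log2 fold change was 3.05 (SE 0.42, adjusted p = 0.000246, by the edgeR quasi-likelihood test, Benjamini-Hochberg adjusted). Without both libraries that held melanocyte transcripts it was 4.02 (adjusted p = 5.99e-09), and over the 6 fits that left out 1 library it ran from 2.63 to 4.15, the highest being the fit without shControl replicate 3. The 3′ end of Gnai3 holds 36.7% G and C, and with a correction for this content the log2 fold change was 2.75.

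Gnai2, on chromosome 9 at 107614125 to 107635367 on the minus strand, encodes the Gi α subunit through which many chemokine and lysophospholipid receptors signal. Its normalised counts were 2786, 2351 and 2674 in shControl and 4364, 3223 and 3511 in shLmna, so that every knockdown library lay above every control. It rose by a log2 fold change of 0.51 (SE 0.15, adjusted p = 0.0342, edgeR), 1.42-fold. The call was lost without shControl replicate 1 (adjusted p = 0.0725), shControl replicate 2 (0.181), shLmna replicate 1 (0.170) or shLmna replicate 3 (0.0794), and it held without both libraries with melanocyte transcripts (0.62, adjusted p = 0.0177).

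Within the Gi pair, Gnai2 stayed the main transcript in both groups. Gnai3 was 0.314% of their summed UMIs in shControl replicate 1 (95% Wilson interval 0.165 to 0.596), 0.461% in replicate 2 and 1.93% in replicate 3 (1.42 to 2.62). In shLmna it was 3.06% (2.61 to 3.59), 6.15% (5.43 to 6.97) and 5.11% (4.35 to 5.99). The lowest knockdown share was above the highest control share, although the intervals of the nearest pair, shControl replicate 3 and shLmna replicate 1, overlapped at their ends. Such intervals cover counting error only.

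The remaining 4 α genes did not pass. Gnas read 1933 ± 450 normalised counts in shControl and 2352 ± 359 in shLmna, a log2 fold change of 0.28 (adjusted p = 0.306), and its counted end is shared by the other transcripts of its complex locus. Gnaq, the Gq α subunit that activates phospholipase C β, was low at 14.98 ± 5.60 and 19.8 ± 6.62. Gna11, its close relative, read 80.4 ± 27.5 and 78.7 ± 4.08. Gna13, an α subunit that acts through guanine nucleotide exchange factors, read 129 ± 26.5 and 122 ± 11.97 (log2 fold change -0.06, SE 0.18).

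**Figure D2:**
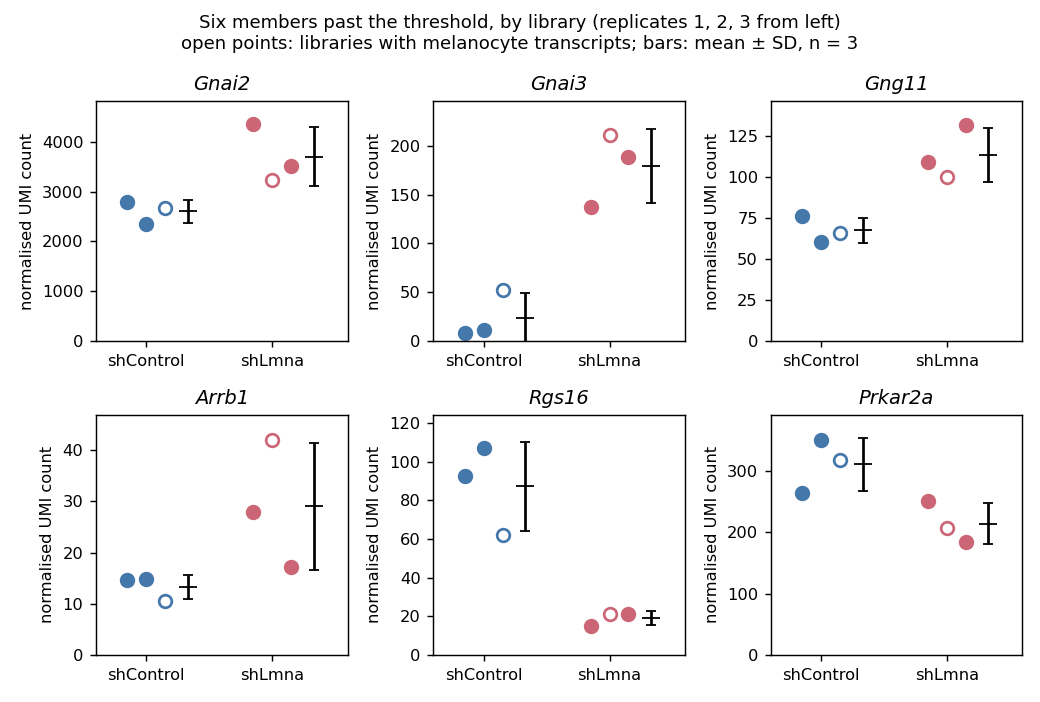
Normalised UMI counts of the 6 members that passed the test, 1 panel each with its own linear axis from 0; points are the 3 shControl and 3 shLmna libraries (open for those with melanocyte transcripts), and the horizontal line is the mean with its SD as a bar, cut off at 0 for Gnai3 in shControl. For Gnai3 the shControl libraries lie at 8.77, 10.9 and 52.7 and the shLmna libraries at 138 to 211, and for Rgs16 the shLmna libraries lie at 14.9 to 21.1, below all controls.

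The β and γ subunits form the dimer that anchors the α subunit at the membrane and itself opens ion channels and activates phosphoinositide 3-kinase. None of the 4 β genes passed. Gnb2 was the most abundant, at 80.7% to 89.1% of β molecules over the 6 libraries, and read 1738 ± 137 normalised counts in shControl and 2061 ± 428 in shLmna (log2 fold change 0.25, adjusted p = 0.333). Gnb1 read 205 ± 34.4 and 221 ± 32.9, and Gnb4 101 ± 34.2 and 107 ± 23.7. Gnb5, a divergent β subunit that pairs with a class of RGS proteins, read 20.5 ± 7.95 and 31.2 ± 4.45 (log2 fold change 0.56, SE 0.30, adjusted p = 0.253). All 4 β values were above 0, and none had groups that were fully apart.

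Of the 4 γ genes tested, Gng11 passed. Gng11, on chromosome 6 at 4003904 to 4008445 on the plus strand, encodes a γ subunit that carries a farnesyl rather than a geranylgeranyl anchor. Its normalised counts were 76.0, 60.6 and 65.8 in shControl and 109, 100.2 and 132 in shLmna, and the groups did not overlap. Its log2 fold change was 0.75 (SE 0.19, adjusted p = 0.0175, edgeR), 1.68-fold, and 0.82 without both libraries with melanocyte transcripts (adjusted p = 0.0192). The call was lost without shControl replicate 2 (adjusted p = 0.107) or shLmna replicate 3 (0.0819).

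Gng12, which lies further along chromosome 6, did not pass although its groups were apart. It read 75.1, 67.6 and 85.6 in shControl and 90.4, 118 and 115 in shLmna (log2 fold change 0.51, SE 0.19, adjusted p = 0.0897). Gng10 was the most abundant γ gene, with 46.6% to 52.8% of γ molecules, and read 318 ± 34.9 and 374 ± 42.4. Gng5 read 146 ± 41.8 and 162 ± 9.501. Its log2 fold change of 0.16 turned to -0.32 with the correction for G and C content, and neither value passed.

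Among the 7 RGS genes tested, Rgs16 fell and the other 6 did not pass. Rgs16, on chromosome 1 at 153740349 to 153745468 on the plus strand, had 95, 138 and 47 UMIs in shControl and 16, 23 and 16 in shLmna. As normalised counts these were 92.6, 107 and 61.9 against 14.9, 20.96 and 21.1, means of 87.2 ± 23.1 and 19.0 ± 3.55. The lowest control library was well above the highest knockdown library. Its log2 fold change was -2.22 (SE 0.27, adjusted p = 8e-05, by the edgeR quasi-likelihood test, Benjamini-Hochberg adjusted). It was -2.50 without both libraries with melanocyte transcripts (adjusted p = 3.42e-06), and it ran from -2.41 to -2.04 over the fits that left out 1 library.

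The share of Rgs16 among the molecules of the 7 RGS genes was 20.1%, 21.5% and 13.9% in shControl and 3.64%, 4.93% and 4.89% in shLmna. Rgs19, a small RGS protein that acts on Gi α, was the most abundant of the family at 54.2% to 70.0%, and its levels overlapped: 276 ± 14.8 normalised counts in shControl and 284 ± 16.6 in shLmna (log2 fold change 0.04, SE 0.14). The others were low. Rgs10 read 27.5 ± 5.26 and 36.2 ± 7.98, Rgs20 38.9 ± 9.77 and 30.4 ± 5.24, and Rgs3 14.8 ± 2.70 and 17.02 ± 4.96. Rgs12 read 16.3 ± 3.57 and 23.7 ± 2.41 with groups that were apart (log2 fold change 0.50, adjusted p = 0.304), and Rgs14 read 7.85 ± 3.98 and 12.02 ± 4.92.

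The promoters of Gnai3 and Rgs16 are shown because these are the members with the largest differences, and that of S1pr2, a receptor gene with a log2 fold change of 0.00, because it holds the cAMP response element, the site bound by the CREB factors that PKA phosphorylates. Each is the 250 bases before the RefSeq start site, 5′ to 3′ along the gene's strand in GRCm38.p6, at chr3:108146153-108146402 (minus), chr1:153740103-153740352 (plus) and chr9:20976794-20977043 (minus). Capitals mark the full element TGACGTCA.
Gnai3: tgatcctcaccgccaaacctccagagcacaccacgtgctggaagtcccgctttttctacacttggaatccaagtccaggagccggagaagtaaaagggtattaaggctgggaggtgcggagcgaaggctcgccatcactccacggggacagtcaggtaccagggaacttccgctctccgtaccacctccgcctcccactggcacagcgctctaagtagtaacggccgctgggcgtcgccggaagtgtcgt
Rgs16: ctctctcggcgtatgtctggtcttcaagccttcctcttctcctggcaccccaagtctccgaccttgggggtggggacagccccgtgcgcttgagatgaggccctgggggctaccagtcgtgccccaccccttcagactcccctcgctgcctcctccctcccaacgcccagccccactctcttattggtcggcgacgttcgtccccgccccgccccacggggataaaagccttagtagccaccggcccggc
S1pr2: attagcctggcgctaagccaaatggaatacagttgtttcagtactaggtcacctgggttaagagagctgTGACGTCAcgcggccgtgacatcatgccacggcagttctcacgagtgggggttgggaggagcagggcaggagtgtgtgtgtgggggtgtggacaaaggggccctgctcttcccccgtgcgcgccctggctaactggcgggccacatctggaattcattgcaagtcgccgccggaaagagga
Neither the full element nor its core TGACG, searched on both strands (as CGTCA on the other strand), was found in the windows of Gnai3 and Rgs16. RefSeq windows were at hand for 32 of the 44 members, 57 windows in all, since a gene can have several starts. The full element was in 2 of the 57 (3.51%), 1 of S1pr2 and 1 of Prkar1a, against 1.55% of 32851 windows of all genes. The core, which the full element contains, was in 14 (24.6%) against 17.8%. Windows of a gene can overlap, and overlapping windows of Gnas and of Prkar1a held the same core site, so that these windows are not independent. A match in the letters is a description of the window and not a bound site.

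The adenylyl cyclases, which make cAMP from ATP, did not pass in any of 4 cases. Adcy3, the most abundant at 44.9% to 59.4% of cyclase molecules, read 199.8 ± 23.2 normalised counts in shControl and 203 ± 17.8 in shLmna. Adcy6 read 67.3 ± 16.3 and 54.4 ± 4.76, and Adcy9 25.5 ± 7.62 and 26.5 ± 9.55. Adcy7 read 72.1, 67.6 and 112 in shControl and 119, 142 and 97.8 in shLmna. Its groups met at shControl replicate 3, and the log2 fold change was 0.55 (SE 0.22, adjusted p = 0.114, edgeR). Without that library it was 0.78 (adjusted p = 0.0133), in a fit where 17.2% of all genes passed. Of the 6 fits that left out 1 library, this was the 1 that passed. Over all 6 the value ran from 0.40 to 0.78, and the adjusted p reached 0.403.

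Pde4b, the 1 phosphodiesterase tested, breaks down cAMP. Its normalised counts were 42.9, 31.9 and 36.9 in shControl and 43.8, 58.3 and 63.4 in shLmna. The groups were narrowly apart, and the log2 fold change of 0.56 did not pass (SE 0.23, adjusted p = 0.126, edgeR). With the correction for G and C content it was 0.30 (adjusted p = 0.399).

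Of the 4 PKA genes, 1, Prkar2a, passed. Prkar2a encodes the type II α regulatory subunit, which binds A-kinase anchoring proteins, and lies on chromosome 9 at 108689314 to 108750436 on the plus strand, the chromosome of Gnai2. Its normalised counts were 264, 350.5 and 319 in shControl and 252, 207 and 185 in shLmna, which were apart by a narrow gap. The log2 fold change was -0.53 (SE 0.17, adjusted p = 0.0444, edgeR). The call was lost without both libraries with melanocyte transcripts (-0.48, adjusted p = 0.110), without shControl replicate 2 (adjusted p = 0.210), shLmna replicate 2 (0.125) or shLmna replicate 3 (0.177), with no filter on low counts (0.0518) and with DESeq2 (0.0548).

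Prkar1a, the type I α regulatory subunit, read 249, 307 and 265 in shControl and 347, 346 and 361 in shLmna. The groups were apart, but the log2 fold change of 0.36 did not pass (SE 0.14, adjusted p = 0.111), and with the correction for G and C content it was -0.18. Prkaca, the main catalytic subunit gene at 73.1% to 82.4% of catalytic molecules, read 349.98 ± 23.3 and 438 ± 56.9 (log2 fold change 0.32, adjusted p = 0.160). Prkacb, the other catalytic gene, read 97.9 ± 25.8 and 139 ± 6.23 (0.52, adjusted p = 0.0968), and it passed without both libraries with melanocyte transcripts (0.66, adjusted p = 0.0472).

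The balance of the regulatory subunits differed between the groups in every library. Prkar2a was 51.5%, 53.3% and 54.6% of the summed Prkar1a and Prkar2a molecules in shControl and 42.0%, 37.4% and 33.9% in shLmna. The 95% Wilson intervals of the control libraries, 47.3 to 55.8 at the lowest, did not meet those of the knockdown libraries, 38.2 to 45.8 at the highest. These intervals cover counting error alone, and replicates of a group differed by more than that (chi-square per degree of freedom 5.11 to 8.28). This share is a description and was not tested, and it compares 2 genes whose counted ends differ in base content.

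**Figure D3:**
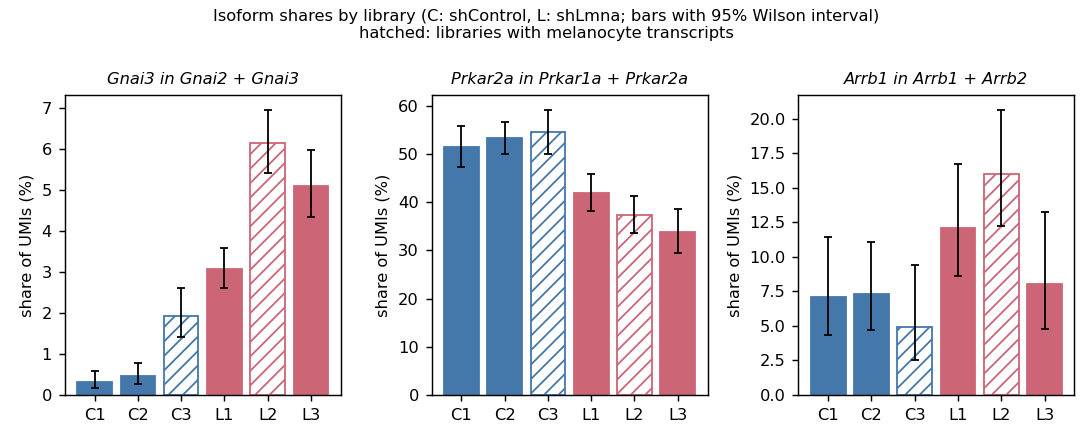
Bars give the share of a pair's UMIs held by 1 gene in each library, in percent on linear axes from 0, with 95% Wilson intervals of counting error; shControl libraries are blue, shLmna libraries red, and those with melanocyte transcripts hatched. The shares of Gnai3 in the Gi pair and of Arrb1 in the β-arrestins are higher, and that of Prkar2a beside Prkar1a lower, in all 3 shLmna libraries.

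The receptor kinases and arrestins switch off active receptors, and the β-arrestins also act as scaffolds for kinases. Arrb1, on chromosome 7 at 99535466 to 99606771 on the plus strand, encodes β-arrestin 1 and was the minor arrestin. It had 15, 19 and 8 UMIs in shControl and 30, 46 and 13 in shLmna, or 14.6, 14.8 and 10.5 against 27.9, 41.9 and 17.2 normalised counts. The groups were apart, with shLmna replicate 3 close to the controls and shLmna replicate 2, which held melanocyte transcripts, the highest. At 1.13, its log2 fold change passed (SE 0.35, adjusted p = 0.0460, edgeR). It was 0.66 without both libraries with melanocyte transcripts and did not pass (adjusted p = 0.293). Of the 6 fits that left out 1 library, 1 kept the call, that without shLmna replicate 3 (adjusted p = 0.0337), and it was lost with DESeq2 (0.125), limma-voom (0.0683) and no filter (0.0521).

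Arrb1 was 7.11%, 7.28% and 4.91% of the molecules of both β-arrestin genes in shControl and 12.1%, 15.97% and 8.02% in shLmna, and the intervals of shLmna replicate 3 (4.75 to 13.2) and of the controls overlapped. Arrb2, which encodes β-arrestin 2 and held 84.0% to 95.1% of the arrestin molecules, read 194 ± 8.53 normalised counts in shControl and 207 ± 12.2 in shLmna (log2 fold change 0.09, SE 0.15). Adrbk1, the older symbol of Grk2, the kinase that Gβγ draws to active receptors, read 685 ± 101 and 571 ± 69.5 (-0.27, adjusted p = 0.278). Grk6 read 582 ± 160 and 566 ± 209, and Grk5 51.8 ± 15.2 and 67.0 ± 9.04. None of the 3 kinases had groups that were apart.

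Plcb3, the 1 phospholipase C β gene tested, makes inositol trisphosphate and diacylglycerol on the order of Gq α and Gβγ. It read 68.2, 67.6 and 76.4 normalised counts in shControl and 106, 131 and 80.6 in shLmna. The groups were apart, and the log2 fold change of 0.60 did not pass (SE 0.20, adjusted p = 0.0653, edgeR). It passed with the correction for G and C content (0.64, adjusted p = 0.0419) and in 2 of the 6 fits that left out 1 library. It did not pass with DESeq2 (0.134), with limma-voom (0.0712) or without both libraries with melanocyte transcripts (0.48, adjusted p = 0.192).

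None of the 6 receptor genes passed. Gprc5a, an orphan receptor induced by retinoic acid, was the most abundant with 42.1% to 61.9% of receptor molecules, and it read 546, 372 and 327 normalised counts in shControl and 373, 259 and 344 in shLmna (log2 fold change -0.36, SE 0.19, adjusted p = 0.252). P2ry2, a receptor for extracellular ATP and UTP, was the receptor with groups that were apart. It read 98.5, 76.2 and 57.9 against 53.1, 47.4 and 52.9 (-0.61, SE 0.22, adjusted p = 0.0842, edgeR). Without shControl replicate 3, the lowest control, the value was -0.78 (adjusted p = 0.0184). Of the 6 fits that left out 1 library, this was the 1 that passed. Over all 6 the value ran from -0.78 to -0.42, and the adjusted p reached 0.285.

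The thrombin receptor F2r read 83.0 ± 28.6 in shControl and 98.0 ± 10.9 in shLmna, and F2rl1, the trypsin-activated receptor of the same family, 88.6 ± 4.39 and 85.2 ± 11.3. S1pr2, which binds sphingosine 1-phosphate, read 81.7 ± 7.40 and 81.3 ± 15.1 (log2 fold change 0.00, SE 0.20). Adora2b, a low-affinity adenosine receptor coupled to Gs, read 35.8 ± 4.80 and 32.6 ± 4.06. These 4 receptors overlapped between the groups, and a p that misses the threshold does not show that their levels were equal.

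Leaving out both libraries with melanocyte transcripts left 2 libraries a group. In that fit 5 of the 42 members passed, beside 13.2% of the 8996 genes tested: Gnai3, Gnai2, Gng11 and Rgs16 as with all libraries, and Prkacb in addition, while Arrb1 and Prkar2a did not. The median log2 fold change of the members was 0.21, against 0.20 with all 6 libraries. Among the members that passed in neither fit, the log2 fold change of Adcy9 went from 0.06 to -0.42, that of Gnaq from 0.41 to -0.02 and that of Grk5 from 0.36 to 0.07. It went from -0.37 to -0.70 for Rgs20, from 0.40 to 0.71 for Rgs10 and from 0.16 to 0.42 for Gng5.

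**Figure D4:**
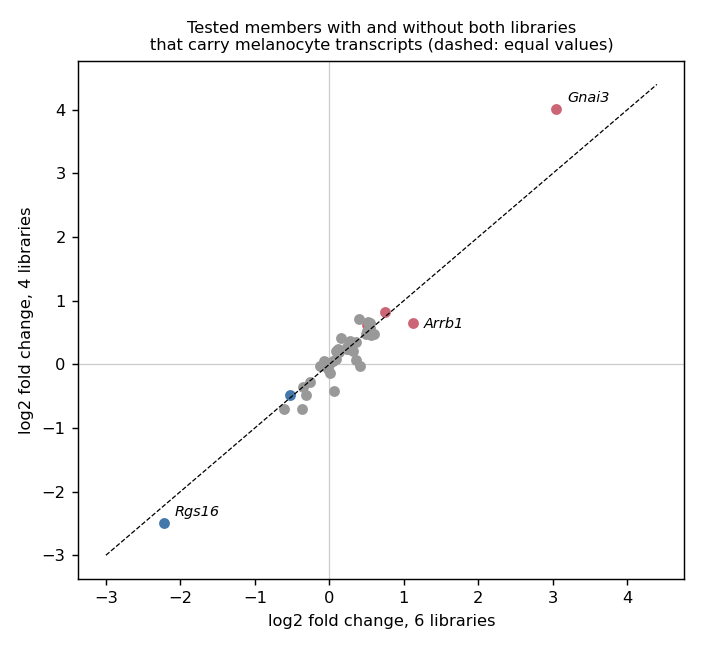
Log2 fold change of each tested member with all 6 libraries (x axis) against that without the 2 libraries that held melanocyte transcripts (y axis), both shLmna over shControl; the dashed line marks equal values, and red, blue and grey mark higher, lower and not passed with all 6 libraries. Gnai3 moves from 3.05 to 4.02, Rgs16 from -2.22 to -2.50 and Arrb1 from 1.13 to 0.66, and the axes share 4 of their 6 libraries.

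A wider list of 158 genes of the same pathways, drawn up by function with earlier results of these data known, gave 54 genes in the table and 45 tested. Of these, 8 passed (17.8%), 4 higher and 4 lower, beside the 13.7% of all genes. The log2 fold change was above 0 for 23 and below 0 for 22, with a median of 0.02. Among the enzymes of cAMP breakdown, Pde4a read 221, 234 and 190 normalised counts in shControl and 352, 373 and 476 in shLmna (log2 fold change 0.89, adjusted p = 0.00218, edgeR). Pde2a, a phosphodiesterase that cGMP stimulates, read 80.9, 67.6 and 60.6 against 36.3, 31.0 and 39.6 (-0.98, adjusted p = 0.00887). Both kept the call in all 6 fits that left out 1 library, and the counted end of Pde2a overlaps the annotated gene Gm45837 on the same strand.

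Around PKA, the type I β regulatory subunit gene Prkar1b fell from 106 ± 19.0 to 60.0 ± 8.29 (-0.83, adjusted p = 0.0139). The paralogous nuclear anchoring genes Akap8 and Akap8l moved in opposite directions. Akap8 read 22.4, 40.4 and 63.2 against 63.3, 106 and 84.6 (1.05, adjusted p = 0.0326), with shControl replicate 3 and shLmna replicate 1 nearly meeting. Akap8l read 110.2, 109.6 and 116 against 63.3, 72.0 and 52.9 (-0.82, adjusted p = 0.00942). Pdcl, which helps to assemble Gβγ dimers, rose from 27.6 ± 4.87 to 54.2 ± 6.71 (0.99, adjusted p = 0.0129, edgeR). Its counted end holds 37.1% G and C, and with the correction for this content the value was 0.695 (adjusted p = 0.0351). With that correction and the replicate number as a block, Pdcl did not pass (adjusted p = 0.055). Prkar1b lost the call without shControl replicate 1, shControl replicate 2 or shLmna replicate 2 (adjusted p 0.0565 to 0.0652), and Akap8l without shLmna replicate 3 (0.0505). Without shControl replicate 1, shControl replicate 2, shLmna replicate 2 or shLmna replicate 3, Akap8 did not pass (0.105 to 0.141), nor did Pdcl (0.0506 to 0.0750).

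Of 7 further receptor genes tested, Smo, the Hedgehog signal transducer, rose from 151 ± 20.4 to 220.2 ± 1.69 (0.55, adjusted p = 0.0318). Gpr19, an orphan receptor, fell from 60.9 ± 3.81 to 35.6 ± 5.49 (-0.77, adjusted p = 0.0293), and its call was lost without both libraries with melanocyte transcripts (adjusted p = 0.0918) and with DESeq2 (0.0981). The other 7 of the 8 calls held without those libraries. Smo lost the call without any 1 library other than shControl replicate 3 (adjusted p 0.0572 to 0.182), and Gpr19 without shControl replicate 1, shControl replicate 2, shLmna replicate 2 or shLmna replicate 3 (0.0844 to 0.108).

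Within the 4 PKA regulatory genes, Prkar1a held 38.6%, 40.4% and 38.8% of molecules in shControl and 52.2%, 57.1% and 58.7% in shLmna, while Prkar1b held 13.1% to 19.7% and 8.41% to 11.0%. Prkar2b was at 7 UMIs or fewer in every library. These shares are a description and were not tested. Prkar1a itself did not pass, and its log2 fold change of 0.36 was -0.18 with the correction for G and C content.

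For 6 of the 42 tested members the counted end overlaps another annotated gene. Gnb2 overlaps Mir6418 and Gng10 overlaps Gm20503 on the same strand. Rgs12, Adcy3, Adcy6 and Prkar1a overlap a gene on the opposite strand, Gm43791, Cenpo, Gm29331 and Fam20a in that order, and whether the counting used strand is not stated, so that their reads cannot be told apart from those of the partner. None of the 6 members that passed is among them.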

How the data were processed

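The 6 MARS-seq libraries were grouped by their labels. Per the labels and the study's methods, the authors trimmed reads with cutadapt, mapped them to mm10 with STAR 2.4.2a, and counted UMIs with HTSeq over a 3′ window of RefSeq genes, 1000 bases long plus 100 bases past the end. The deposited counts are whole numbers without normalization. All per-library columns belonged to these samples. The deposited log2 values after ComBat and the table of the authors' DESeq2 comparison (fold changes and p-values) were not used. The members and lists were chosen with earlier results of these data known.

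Counts were tested over all genes with edgeR 4.0.16 (R 4.3.3) by the quasi-likelihood test, with TMM factors, a filterByExpr minimum count of 10 and Benjamini-Hochberg adjustment, an adjusted p under 0.05 being called. The script was tested on simulated data. Standard errors are those of edgeR's log2 fold changes. DESeq2 1.42.0, limma-voom (limma 3.58.1), RLE and upper-quartile factors, no filter, a replicate block, a loess correction for G and C content of the 3′ end (span 0.3, degree 2) and leaving out each library were alternatives, and leaving out both libraries with melanocyte transcripts was added after seeing the data. Members past the adjusted threshold or an absolute log2 fold change of 1, and the most abundant of each role, were named with values per library, and other members with their levels; Adcy7, Gng12, Pde4b, Prkar1a, Plcb3 and P2ry2 were given per library after their values were seen. Positions and G and C content came from GENCODE M21 (GRCm38), which gave a transcript for 10468 of 10520 genes, 323 through an older symbol. The smallest p of an exact permutation test on this design is 0.1. Depth was 1846208 to 3242051 UMIs, so that genes with few UMIs carry large counting error. Replicates of a group differed by more than counting noise (chi-square per degree of freedom 5.11 to 8.28). Scripts used Python 3.11.15, pandas 2.3.3 and matplotlib 3.10.9.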

Additional observations from a re-analysis of the deposited data

How the results depend on the processing

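With the RLE and upper-quartile factors, no filter, DESeq2, limma-voom and the corrections for G and C content, 4 to 7 members passed (6 with the settings of the report), beside 9.8% to 16.8% of all genes, the median log2 fold change of the members was 0.13 to 0.22, and no named value with a call changed its sign. Gnai3 and Rgs16 passed in every one of these settings and in each fit that left out 1 library. Over the fits that left out 1 library, 2 to 10 members passed, 2 without shControl replicate 2 (4.65%, beside 5.89% of all genes) and 10 without shControl replicate 3 (23.3%, beside 17.2%), where Gnas (0.48, adjusted p = 0.0459, edgeR), Adcy7, Prkacb, Plcb3 and P2ry2 passed in addition and Arrb1 did not. Of the other pathway genes 3 to 10 passed, 3 each without shControl replicate 1, shControl replicate 2, shLmna replicate 2 or shLmna replicate 3, against 8. The 3 calls by the study's criteria were 2 to 3, and Lmna lay between -1.26 and -1.15. The cause was not tested. With the replicate number as a replicate block 6 members and 8 other pathway genes passed, and it changed no member's call. Same-numbered libraries had correlations of their deviations of 0.35, -0.11 and 0.0052. Only that of replicate 1 was clearly positive. The labels do not say what same-numbered libraries share beyond the number, and this was not tested. Depth limits the low members: Arrb1 rests on 8 to 46 UMIs a library, and Rgs14, Gnaq and Rgs3 were also low.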

Other observations

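Mc1r, the melanocortin receptor through which cAMP drives pigment formation in melanocytes, was in the wider list but did not pass the filter on low counts. It was named after its values were seen. It had 0, 1 and 26 UMIs in shControl and 0, 12 and 0 in shLmna, so that its molecules lay almost wholly in the same 2 libraries that held melanocyte transcripts, and no test was made of it.

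Gnao1, the Go α subunit known from neurons, did not pass with all libraries and did without those 2. It had 43, 50 and 30 UMIs in shControl and 83, 44 and 46 in shLmna. The log2 fold change was 0.56 (adjusted p = 0.156, by the edgeR quasi-likelihood test, Benjamini-Hochberg adjusted) with all 6 libraries and 0.79 (adjusted p = 0.0456) without the 2. It too was named after its values were seen.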
